A study of Capra hircus with 6 samples.

Results

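The genes described here encode the factors that start, carry on and end protein synthesis, together with the cytoplasmic poly(A)-binding proteins. They were chosen by symbol: a gene was a member when its symbol in the platform annotation began with EIF1 to EIF6, EEF1, EEF2 or PABPC, or was ETF1, on a probe that carries 1 symbol. This gave 41 genes of the 6535 on the array, measured by 45 probes, and where a gene had several probes the one with the highest mean signal stood for it. RNA came from lactating mammary gland of 6 goats, 3 with the Low and 3 with the High genotype at CSN1S1, the gene of the milk protein alpha-s1-casein. The image names in the scanner files add the codes FF for the Low and AA for the High goats. All 6 goats, the High goats included, had been without food for 48 h, so no fed goat enters any comparison, and the labels used here give neither age nor breed. The goats were hybridized in 3 pairs of 1 Low and 1 High goat, named A, B and C, on arrays read in the dyes Cy5 and Cy3. A pair occupied 2 arrays, the second with its dyes swapped, which made 6 arrays but n = 3 pairs of different goats.

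Translation begins when eIF2 brings the initiator transfer RNA to the small ribosomal subunit, eIF3 and the eIF1 factors prepare that subunit, and the eIF4 proteins recruit it to the capped end of a messenger. Elongation factors then deliver the aminoacylated transfer RNAs and move the ribosome along, and eRF1, the product of ETF1, releases the finished protein at a stop codon. Poly(A)-binding proteins coat the messenger's tail and contact eIF4G at the other end, and the lactating gland depends on this machinery to make large amounts of milk protein.

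Each value is the log2 of Low over High after normalization within its array, and values below 0 stand for less signal in the Low goat. The 2 arrays of a pair were averaged, and limma tested whether the mean of the 3 pairs differed from 0. P-values were adjusted by the Benjamini-Hochberg method over all 6733 tested probes, with a threshold of 0.05. CSN1S1 itself checked the labels: it was lower in the Low goat on all 6 arrays, at -2.71 ± 0.13 (SD, n = 3 pairs). Median signal over background lay between 4.81 and 6.01 in Cy5 and between 2.66 and 3.87 in Cy3. All 9 luminal secretory markers on the array passed the filter on dim signals. No gene of the 8 marker lists for luminal and other cell types passed the test, which 0.446% of all tested probes did. Among the luminal markers LALBA lay at 0.55 and PAEP at -0.44. Of the 3 tested fibroblast and matrix markers, SPARC lay at -0.13, VIM at -0.11 and DCN at 0.003. An equal cell make-up of the genotypes was therefore not shown. In whole tissue, fewer cells of a type and less RNA per cell cannot be told apart. The probes are bovine oligonucleotides read with goat RNA, so a probe's brightness also depends on how well it pairs, and signals are given only to show how well each probe was read, not to order genes by their RNA level.

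A probe entered the test when its signal stood more than 2 background SDs above background in 6 or more of 12 channel readings (6 arrays, each in both dyes) and every array gave a value for it. Of the 41 genes, 31 met this, and 26 of these were above background in all 12 readings. The tested genes ran from EIF4E2, a cap-binding relative of eIF4E, with a signal 1.71 times its background, to EIF2D, a factor that can bring transfer RNA to the ribosome without eIF2, at 256 times. The 10 genes below the filter were EIF1AX, EIF2AK2, EIF2B5, EIF2S2, EIF2S3, EIF3D, EIF3E, EIF3I, EIF3L and PABPC4. They were above background in 0 to 5 readings, their signals were 1.26 to 1.88 times background, and their mean log2 ratios of -0.14 to 0.08 were not tested. EIF3I, EIF1AX and PABPC4 had 0 such readings, in Low and High goats alike, so they were not well above background in either genotype. EIF2S2 and EIF2S3, the beta and gamma subunits of eIF2, each had 1 reading above background, so the array says little about the factor that carries the initiator transfer RNA.

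**Figure D1:**
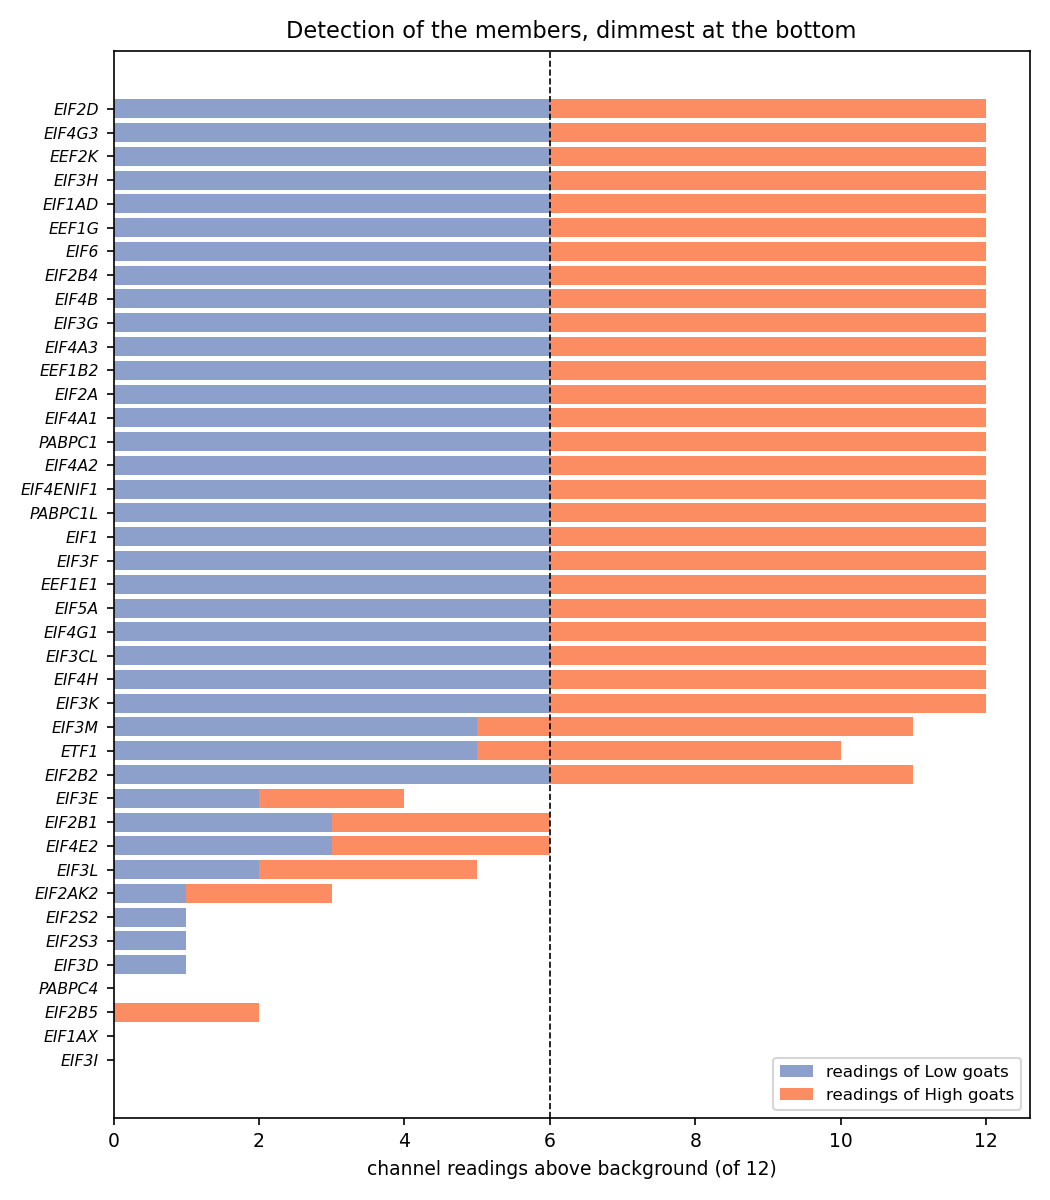
Number of channel readings, out of 12, in which each gene's probe stood above background, with the 6 readings of Low goats and the 6 of High goats stacked and the dashed line at the 6 readings needed for testing. Genes are ordered by signal over background; 26 genes reach 12 readings and 10 fall short of 6.

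None of the 31 tested genes passed the threshold in limma's test, where 0.446% of all tested probes did. That is 0 lower in the Low goats, beside 0.416% of probes, and 0 higher, beside 0.0297%. Before adjustment, 4 of the 31 had a p under 0.05, against 11.3% of all probes. These were PABPC1 and EIF3M, with negative ratios, and EIF4A3 and EIF4G3, with positive ones. The differences were small, as on the whole array: the median absolute log2 ratio was 0.037, beside 0.039 over all tested probes. The mean log2 ratio was within 0.1 of 0 in 28 genes, a count not made over all probes. The 95% interval lay wholly within 0.25 of 0 in 29 of the 31, against 96.7% of all probes. The exceptions were PABPC1 and ETF1. The median over the 31 genes was -0.0013, beside 0.0031 over all tested probes. By pair it was -0.013 in A, -0.0018 in B and -0.012 in C. Signs were split, 16 below 0 and 15 above, beside 48.2% of all probes below 0. In 14 genes all 3 pairs had the same sign, 9 negative and 5 positive, beside 35.5% of all probes. Only EIF3M had the same sign on all 6 arrays, 1 of 31 against 2.99% of all probes.

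**Figure D2:**
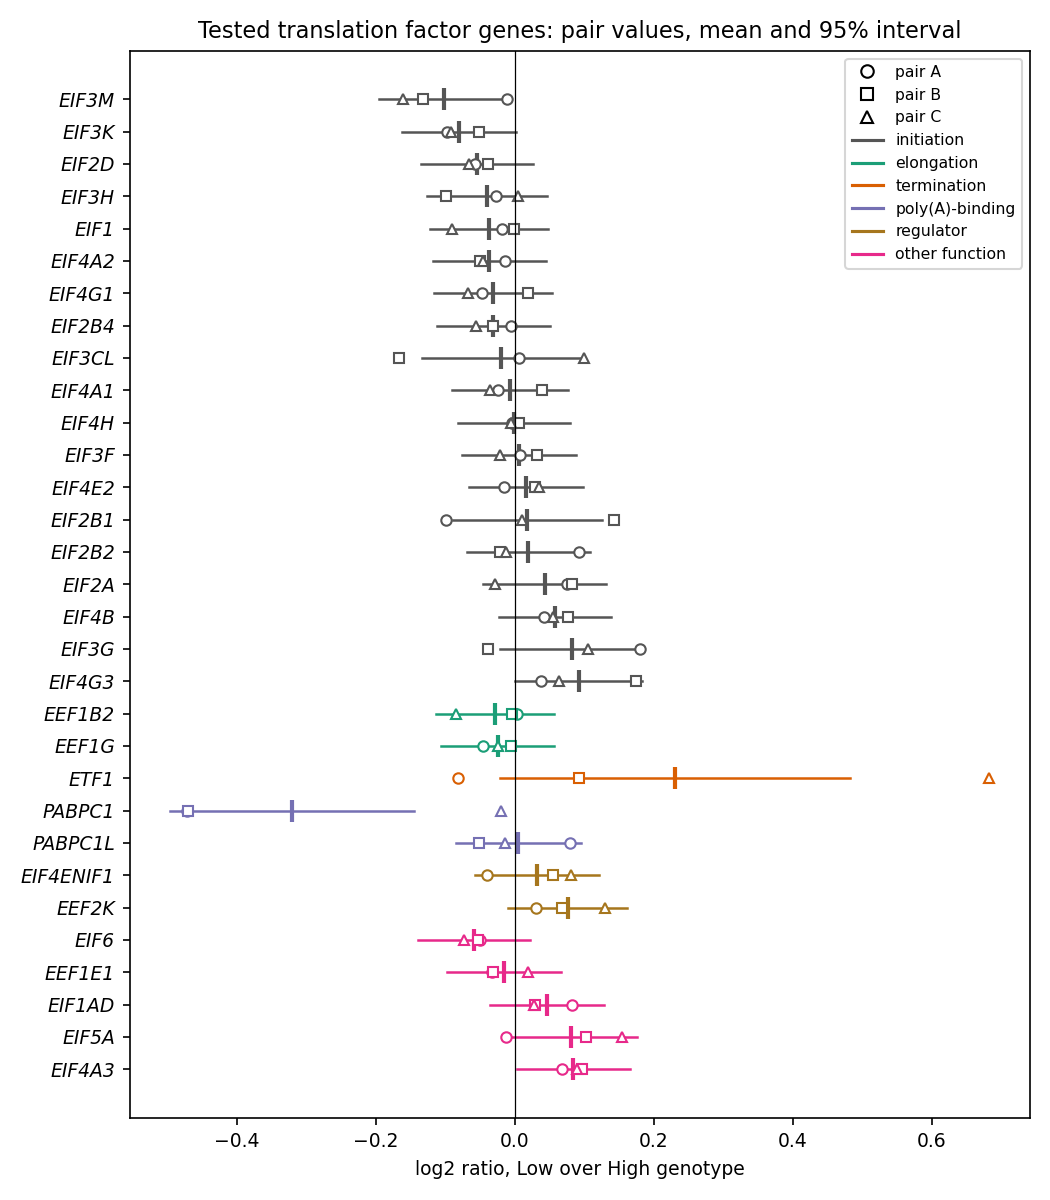
Log2 ratio of Low over High for the 31 tested genes, grouped by role: open symbols are the 3 pairs, the tick is their mean and the line the 95% interval from limma. Most intervals span 0 within 0.25 on either side; PABPC1 has 2 pairs at -0.47 and the third at -0.02, and ETF1 has its pair C at 0.68.

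PABPC1, the main cytoplasmic poly(A)-binding protein, had the lowest mean ratio of the tested genes. With the Low goat in Cy5 the log2 ratio was -0.08 in pair A, -0.15 in pair B and 0.25 in pair C. With the dyes swapped it was -0.87, -0.80 and -0.29. It was thus below 0 on 5 of 6 arrays, and in every pair it was lower when the Low goat carried Cy3. The pair means were -0.47, -0.47 and -0.02, which gives -0.32 ± 0.26 (SD, n = 3), a 1.25-fold lower signal. The 95% interval of limma ran from -0.50 to -0.15. It uses a standard error of 0.078 partly pooled over all probes and is narrower than the 3 pairs alone would give. The adjusted p in limma was 0.205, so PABPC1 did not pass. In normalized log2 intensity the Low goats of pairs A, B and C stood at 8.61, 8.19 and 8.20 and the High goats at 9.08, 8.66 and 8.22. The ranges of the genotypes overlapped, and in pair C the goats were level. Without pair C the ratio of PABPC1 was -0.47 and the adjusted p 0.000237 with 2 pairs. That fit uses 2 nearly equal pair means and takes no account of how far the arrays within each pair lay apart. It also leaves out the pair in which the goats were level. Without pair A or without pair B the ratio was -0.25, with an adjusted p of 0.223 and 0.608.

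The PABPC1 dye effect, the departure of each dye orientation from the mean of both, was 0.33, as large as the mean ratio itself and larger than in any other tested member. Taken alone, the 3 arrays with Low in Cy5 gave a mean of 0.0093 with an adjusted p of 0.944, and those with Low in Cy3 gave -0.65 with an adjusted p of 0.0022. A fit of a single orientation keeps the dye effect in the ratio, and with Low in Cy3 alone 2460 of 6749 tested probes passed. The duplicate spots were close, with a median difference of 0.05 between the spots of an array. In pair A with the Low goat in Cy3, for example, the spots read 366 and 315 in the Low channel and 733 and 680 in the High channel. On the other array of that pair the same RNAs read 372 and 354 in Low and 373 and 357 in High. The part of the dye in the PABPC1 difference was not tested beyond these values.

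PABPC1L, a relative of PABPC1 known mainly from oocytes, had log2 ratios of -0.01 and 0.17 in pair A, 0.06 and -0.16 in pair B and 0.06 and -0.08 in pair C. Its mean was 0.005 ± 0.068 (SD, n = 3), with a 95% interval from -0.08 to 0.09 and an adjusted p of 0.971. The genotypes therefore differed at PABPC1L by less than the spread between pairs. PABPC4, the inducible form, was not above background. These genes are close in sequence, and how far their probes share RNA was not tested.

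**Figure D3:**
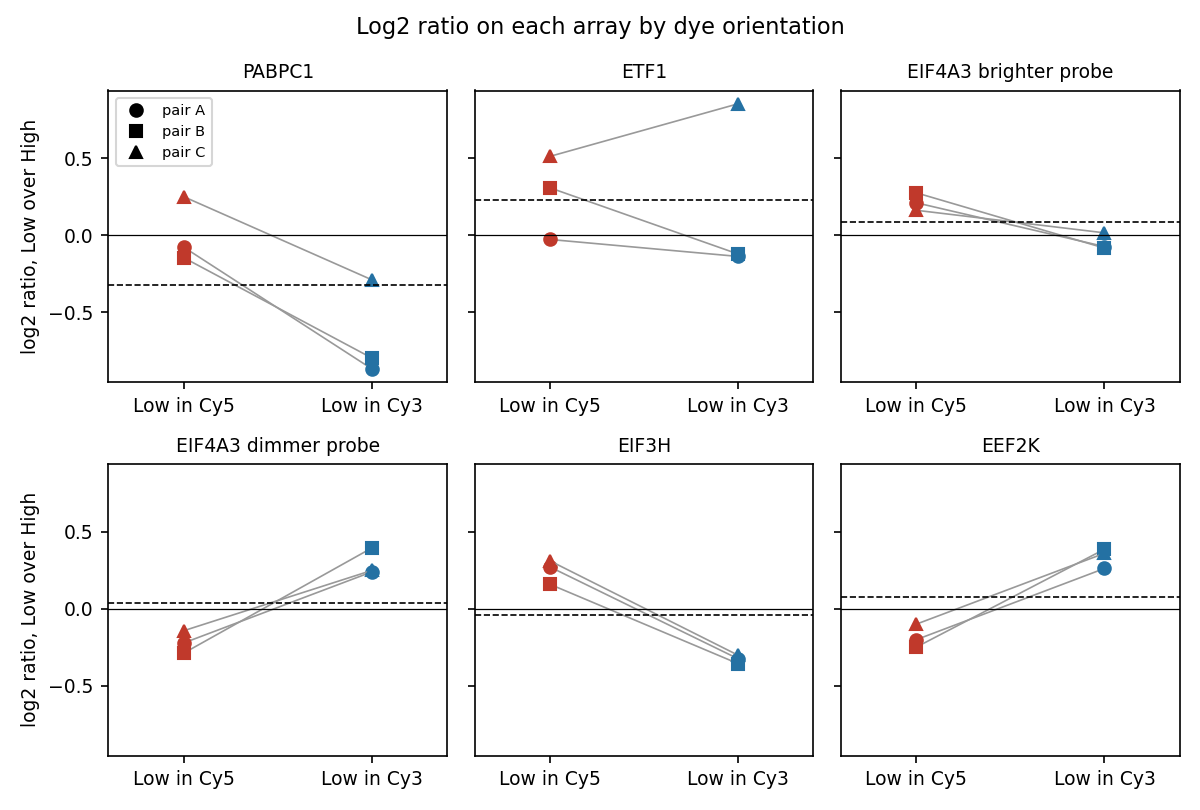
Log2 ratio of Low over High on each of the 6 arrays, Low in Cy5 on the left of each panel and Low in Cy3 on the right; lines join the arrays of a pair and the dashed line is the mean. PABPC1 is lower with the Low goat in Cy3 in all 3 pairs, and the brighter and dimmer EIF4A3 probes slope in opposite directions.

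Initiation was covered by 27 genes, 19 of them tested, and none passed. Their median was -0.0070, with 11 below 0 and 8 above. The eIF3 complex, the scaffold on the small subunit, had 10 subunit genes on the array and 6 tested, with a median of -0.03 and a range from EIF3M to EIF3G. EIF3M had log2 ratios of -0.01 and -0.02 in pair A, -0.25 and -0.01 in B and -0.06 and -0.26 in C. All 6 were negative, but 3 of them lay within 0.02 of 0. The mean was -0.10 ± 0.08 (SD, n = 3), the 95% interval ran from -0.19 to -0.01, and the adjusted p was 0.412. The EIF3M spots did not repeat this evenly, since one spot of the probe averaged -0.16 and the other -0.04 over the pairs. EIF3K, a small peripheral subunit, was steady across pairs at -0.10, -0.05 and -0.09, with a mean of -0.08 and an adjusted p of 0.448. EIF3G, an RNA-binding subunit, gave 0.18, -0.04 and 0.10 in the 3 pairs, with a mean of 0.08 and an adjusted p of 0.518. EIF3F and EIF3H, which share a fold with proteasome lid subunits, had means of 0.006 and -0.04 but dye effects of 0.29 each. For EIF3H the ratio was 0.27, 0.16 and 0.31 with the Low goat in Cy5 and -0.32, -0.36 and -0.30 with the dyes exchanged. The EIF3CL probe, annotated to a copy of the EIF3C core subunit that it may not tell from EIF3C, had pair values of 0.006, -0.17 and 0.10.

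All 7 eIF4 genes on the array were tested, with a median of -0.0013. They ranged from EIF4A2, a helicase that unwinds the leader of a messenger, at -0.04 to EIF4G3, a scaffold that joins the cap and the poly(A)-binding protein, at 0.09. EIF4G3 gave 0.13 and -0.05 in pair A, 0.33 and 0.02 in B and 0.06 and 0.07 in C. Its 3 pair means of 0.04, 0.17 and 0.06 were all positive, and the adjusted p was 0.441. EIF4G1, the main form of that scaffold, lay at -0.03 with pair values of -0.05, 0.02 and -0.07. EIF4B, which stimulates the helicase, was close between pairs at 0.04, 0.08 and 0.06, with an adjusted p of 0.559. EIF4H, a relative of EIF4B, lay at -0.001 ± 0.006 (SD, n = 3), with a 95% interval from -0.08 to 0.08. EIF4A1, the abundant helicase, lay at -0.007. EIF4A1, EIF4A2 and EIF4A3 encode close relatives, and how far their probes share RNA was not tested either. EIF4E2 had a mean of 0.02 but read 0.16, 0.50 and 0.22 with the Low goat in Cy5 and -0.19, -0.44 and -0.15 with it in Cy3. It was above background in 6 of 12 readings, the fewest that allowed a test.

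Among the genes of eIF2 and of eIF2B, the factor that recharges eIF2 with GTP and is blocked in the stress response, 3 of 6 were tested and their median was 0.018. EIF2B4 lay at -0.03, EIF2B1 at 0.018 and EIF2B2 at 0.02. EIF2B1 was above background in 6 readings only, and its pair values of -0.10, 0.14 and 0.01 had an SD of 0.12. The 2 EIF2B2 probes had the same sign within each pair, 0.09 and 0.12 in A, -0.02 and -0.13 in B and -0.01 and -0.17 in C. Their means of 0.02 and -0.06 had opposite signs, and neither passed. EIF1, which guards start codon choice, lay at -0.04. EIF2A, which is not a subunit of eIF2, lay at 0.04. EIF2D gave -0.06, -0.04 and -0.07 in the 3 pairs, with a mean of -0.05 and an adjusted p of 0.582. Its second probe, with a mean signal of 475 against 14575, gave -0.04, 0.02 and 0.06, opposite in sign in 2 of 3 pairs, so the probes did not repeat a direction.

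Elongation was covered by 2 genes, EEF1B2 and EEF1G, the exchange factor subunits that recharge eEF1A with GTP. The genes of eEF1A1 and eEF2 had no probe that carries 1 symbol, so neither could enter the comparison. EEF1B2 gave 0.03 and -0.02 in pair A, -0.0056 and -0.0015 in pair B and -0.01 and -0.16 in pair C. Its mean was -0.03 ± 0.05 (SD, n = 3), with a 95% interval from -0.11 to 0.06 and an adjusted p of 0.789. EEF1G gave -0.05 and -0.05 in A, -0.07 and 0.06 in B and -0.09 and 0.04 in C, with a mean of -0.02 ± 0.02 and an adjusted p of 0.808. Both genes were above background in 12 of 12 readings, and their intervals reached no further than -0.11 and 0.06.

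Initiation and elongation were set against each other pair by pair. The median of the 19 initiation genes minus that of the 2 elongation genes was 0.011 in pair A, 0.0025 in pair B and 0.032 in pair C. The mean of these differences was 0.015 ± 0.015 (SD, n = 3 pairs), and the difference between the medians of the gene means was 0.02. All 3 values were positive, but an exact two-sided sign-flip test over 3 pairs cannot give a p below 0.25. The difference between the medians of the gene means was 0.00017 when arrays were centred on the median in place of loess. It was 0.063 where the Low goat carried Cy5 and -0.067 where it carried Cy3, so its sign followed the dye. Grouping by symbol alone, the 24 tested EIF genes had a median of 0.0022 and the 4 tested EEF genes, which include EEF2K and EEF1E1, one of -0.02.

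**Figure D4:**
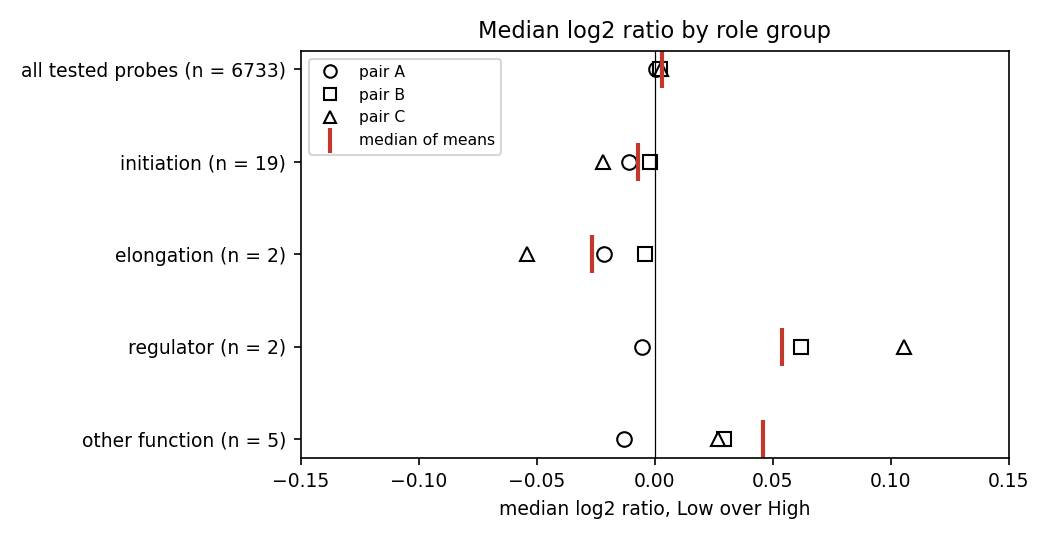
Median log2 ratio of Low over High in each pair (open symbols) and median of the gene means (red tick) for initiation factors, elongation factors, regulators and genes of other function, and for all 6733 tested probes. The initiation and elongation medians lie between -0.06 and 0 in every pair.

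ETF1, the release factor gene, had the highest mean ratio of the tested members. The log2 ratio was -0.03 and -0.14 in pair A, 0.31 and -0.12 in pair B and 0.51 and 0.85 in pair C. Pair A was negative, and the pair means of -0.08, 0.09 and 0.68 give 0.23 ± 0.40 (SD, n = 3). In limma the 95% interval ran from -0.02 to 0.48 and the adjusted p was 0.468. This interval too is narrower than the 3 pairs alone would give. Without pair C the mean was 0.0052. The 2 spots of the probe differed by over 0.5 on 3 of 6 arrays, where 0.422% of 40263 probe readings and 0 of 180 readings of the other members did so. In pair B with the Low goat in Cy5 the spots gave -0.06 and 0.68, and in pair C they gave 0.89 and 0.14. In pair C with the Low goat in Cy3 they gave -0.0066 and 1.71. The spot at 1.71 had been marked empty by the scanner software, and its High channel read 168 over a local background of 360. With spots marked empty left out the mean of ETF1 was 0.087, and with signal medians in place of means it was 0.0089. The positive mean of ETF1 thus rested on pair C and, within it, on single spots.

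**Figure D5:**
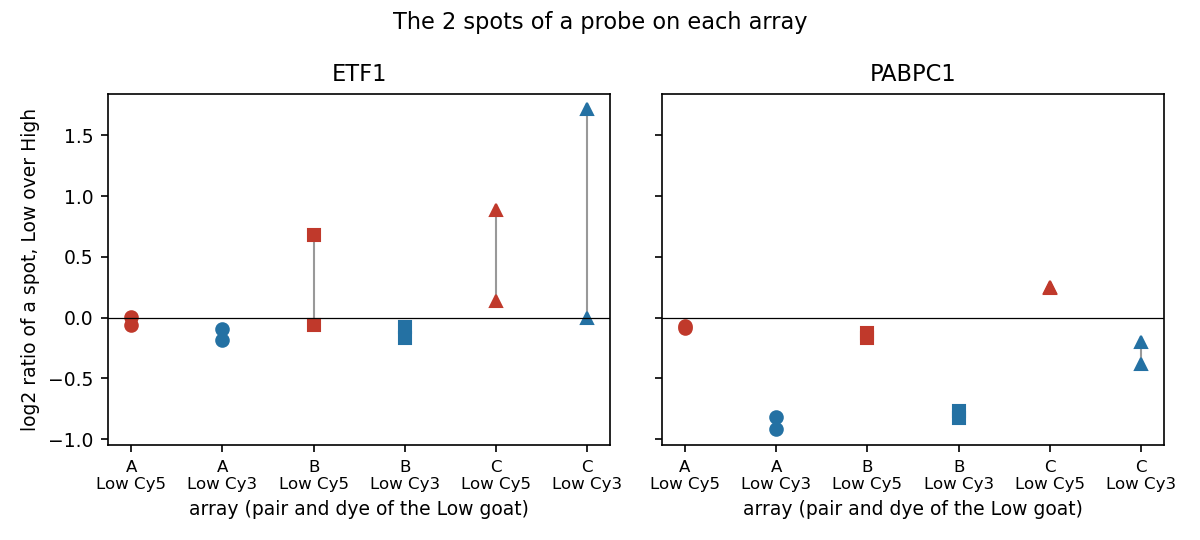
Log2 ratio of Low over High for the 2 spots of the ETF1 and PABPC1 probes on each of the 6 arrays, joined by a line. The ETF1 spots differ by over 0.5 on 3 arrays, up to -0.0066 against 1.71, while the PABPC1 spots lie close together on every array.

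Of 3 regulator genes 2 were tested, and 0 passed. EEF2K, whose product blocks elongation by phosphorylating eEF2, had pair means of 0.03, 0.07 and 0.13, with a mean of 0.08 ± 0.05 (SD, n = 3) and an adjusted p of 0.477. Its arrays read -0.20, -0.25 and -0.10 with the Low goat in Cy5 and 0.26, 0.39 and 0.36 with it in Cy3, a dye effect of -0.26. EIF4ENIF1, which carries eIF4E into the nucleus, lay at 0.03 with an adjusted p of 0.766. EIF2AK2, the kinase that blocks eIF2 on double-stranded RNA, was above background in 3 of 12 readings and was not tested.

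The remaining 5 symbols match the rule by name but are known mainly for other work, and 5 of 5 were tested with 0 called. EIF4A3 is the helicase core of the exon junction complex, which marks spliced messengers. Its brighter probe, Bt00008043, gave 0.21 and -0.07 in pair A, 0.28 and -0.08 in B and 0.16 and 0.02 in C. Its dimmer probe, Bt00004785, gave -0.22 and 0.24 in A, -0.29 and 0.39 in B and -0.14 and 0.25 in C. Array by array the probes had opposite signs on 5 of 6 arrays. Their dye effects, taken from the same array values, also ran opposite ways, 0.13 for the brighter and -0.26 for the dimmer. Averaged over the dyes they had the same sign in 3 of 3 pairs: 0.07, 0.10 and 0.09 for the brighter and 0.0086, 0.05 and 0.05 for the dimmer. The means were 0.08 ± 0.01 and 0.04 ± 0.03 (SD, n = 3), with adjusted p-values of 0.419 and 0.696, so both were small and neither passed.

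EIF5A, which helps ribosomes through difficult stretches, gave -0.01, 0.10 and 0.15 in the 3 pairs, with a mean of 0.08, an adjusted p of 0.493 and a dye effect of -0.26. EIF6, which keeps the ribosomal subunits apart, was even across pairs at -0.05, -0.05 and -0.07, with an adjusted p of 0.552. EEF1E1, a scaffold of the aminoacyl transfer RNA synthetase complex, lay at -0.015, and EIF1AD at 0.05. The mean ratio of none of these 5 genes lay more than 0.1 from 0.

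Dye orientation separated the arrays of many members more than genotype did. In 16 of 31 genes, 51.6%, the 3 ratios with the Low goat in Cy5 did not overlap the 3 with it in Cy3, beside 53.3% of all probes. They were higher with Cy5 in 8 genes and with Cy3 in 8. The dye effect was larger than the mean log2 ratio in 22 of 31 genes, beside 74.4% of probes. Over the 31 genes the ratios of the 2 arrays of a pair had a Pearson correlation of -0.32 in pair A, -0.44 in B and 0.11 in C. Over all tested probes it was -0.54, -0.54 and -0.13. The points of each correlation share their arrays and dyes, and the values are descriptions. Averaging the 2 arrays cancels a dye effect only where it is equal on both.

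Pairs of goats differed from each other more than the genotypes did. The normalized intensity of a gene, averaged over both goats of a pair, ranged more widely across the 3 pairs than the largest difference within any pair in 28 of 31 genes, 90.3%, beside 92.8% of all probes. For EEF1B2 the pair levels were 9.22 in A, 8.20 in B and 9.35 in C on the log2 intensity scale. The range was 1.15, while the goats of a pair differed by at most 0.084. PABPC1 had pair levels of 8.84, 8.43 and 8.21 and ETF1 8.08, 8.05 and 7.61. ETF1 was 1 of the 3 genes whose largest within-pair difference, 0.68, exceeded the range of 0.46. A pair of goats had arrays of its own, so differences between pairs of goats and between arrays cannot be told apart.

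Genes that act on the translation factors were also read. Of 11 tested genes of mTOR signalling and cap control, 0 passed in either direction, and their median was 0.019. RPTOR, the mTOR partner that binds its substrates, lay at 0.10 with an adjusted p of 0.388. MLST8, a core subunit of mTOR complexes, lay at -0.07, and RPS6KB1, the ribosomal S6 kinase, at -0.05. Of 8 genes of the integrated stress response, which is set off when eIF2 is phosphorylated, 0 passed and the median was 0.03. ATF4, its main transcription factor, lay at 0.10 with an adjusted p of 0.415, and TRIB3 and SESN2, known as ATF4 targets, both lay at 0.06.

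Of 3 tested genes of the exon junction complex and nonsense-mediated decay, 0 passed. UPF2, a decay factor, lay at -0.12 with an adjusted p of 0.345, while ACIN1 and CASC3, junction complex proteins, lay at 0.01 and -0.0023. Of 5 genes of termination, recycling and tail shortening, 0 passed and the median was 0.0056. TOB1, which brings the deadenylase to poly(A)-binding protein, lay at -0.05, CNOT1, the deadenylase scaffold, at 0.05, and ABCE1, the recycling ATPase, at -0.04. Of 7 tested genes whose messengers begin with a terminal oligopyrimidine tract, 0 passed and the median was -0.02. All but TPT1 in that list are members described above, PABPC1 among them, so it adds little of its own. The median over all tested probes was 0.0031. Of the 8 tested genes of the integrated stress response, 3 lay below 0 and 5 above, with ASNS and PPP1R15A at -0.05 each. The dye effects of ATF4, TRIB3 and SESN2 were -0.13, -0.12 and -0.15, larger in size than their mean ratios. Those of RPTOR and RPS6KB1, -0.14 and 0.26, were also larger than their mean ratios, while that of MLST8, -0.05, was smaller. For EIF4A3, the opposite dye effects of its 2 probes restate their array values, and their source was not tested. The 2 spots of the dimmer EIF4A3 probe, Bt00004785, averaged 0.06 and -0.04 in pair A and -0.05 and 0.16 in pair B. In pair C both averaged 0.05. The positive pair values of that probe in A and B were thus not repeated by both spots.

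EIF5A, which helps ribosomes through difficult stretches, gave -0.01, 0.10 and 0.15 in the 3 pairs, with a mean of 0.08, an adjusted p of 0.493 and a dye effect of -0.26. EIF6, which keeps the ribosomal subunits apart, was even across pairs at -0.05, -0.05 and -0.07, with an adjusted p of 0.552. EEF1E1, a scaffold of the aminoacyl transfer RNA synthetase complex, lay at -0.015, and EIF1AD at 0.05. The mean ratio of none of these 5 genes lay more than 0.1 from 0.

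Dye orientation separated the arrays of many members more than genotype did. In 16 of 31 genes, 51.6%, the 3 ratios with the Low goat in Cy5 did not overlap the 3 with it in Cy3, beside 53.3% of all probes. They were higher with Cy5 in 8 genes and with Cy3 in 8. The dye effect was larger than the mean log2 ratio in 22 of 31 genes, beside 74.4% of probes. Over the 31 genes the ratios of the 2 arrays of a pair had a Pearson correlation of -0.32 in pair A, -0.44 in B and 0.11 in C. Over all tested probes it was -0.54, -0.54 and -0.13. The points of each correlation share their arrays and dyes, and the values are descriptions. Averaging the 2 arrays cancels a dye effect only where it is equal on both.

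Pairs of goats differed from each other more than the genotypes did. The normalized intensity of a gene, averaged over both goats of a pair, ranged more widely across the 3 pairs than the largest difference within any pair in 28 of 31 genes, 90.3%, beside 92.8% of all probes. For EEF1B2 the pair levels were 9.22 in A, 8.20 in B and 9.35 in C on the log2 intensity scale. The range was 1.15, while the goats of a pair differed by at most 0.084. PABPC1 had pair levels of 8.84, 8.43 and 8.21 and ETF1 8.08, 8.05 and 7.61. ETF1 was 1 of the 3 genes whose largest within-pair difference, 0.68, exceeded the range of 0.46. A pair of goats had arrays of its own, so differences between pairs of goats and between arrays cannot be told apart.

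Genes that act on the translation factors were also read. Of 11 tested genes of mTOR signalling and cap control, 0 passed in either direction, and their median was 0.019. RPTOR, the mTOR partner that binds its substrates, lay at 0.10 with an adjusted p of 0.388. MLST8, a core subunit of mTOR complexes, lay at -0.07, and RPS6KB1, the ribosomal S6 kinase, at -0.05. Of 8 genes of the integrated stress response, which is set off when eIF2 is phosphorylated, 0 passed and the median was 0.03. ATF4, its main transcription factor, lay at 0.10 with an adjusted p of 0.415, and TRIB3 and SESN2, known as ATF4 targets, both lay at 0.06.

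Of 3 tested genes of the exon junction complex and nonsense-mediated decay, 0 passed. UPF2, a decay factor, lay at -0.12 with an adjusted p of 0.345, while ACIN1 and CASC3, junction complex proteins, lay at 0.01 and -0.0023. Of 5 genes of termination, recycling and tail shortening, 0 passed and the median was 0.0056. TOB1, which brings the deadenylase to poly(A)-binding protein, lay at -0.05, CNOT1, the deadenylase scaffold, at 0.05, and ABCE1, the recycling ATPase, at -0.04. Of 7 tested genes whose messengers begin with a terminal oligopyrimidine tract, 0 passed and the median was -0.02. All but TPT1 in that list are members described above, PABPC1 among them, so it adds little of its own. The median over all tested probes was 0.0031.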

How the data were processed

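Per the labels' protocols, 5 µg of total RNA per goat was labelled directly with Cy5 or Cy3 and the arrays were read with ImaGene 6.0, which the file headers give as 6.0.1. The deposited scanner files hold the signal and background intensity of 19200 spots per dye on a linear scale, not background-subtracted. A deposited table of the whole series holds a log2 ratio per spot, made by the authors. Set against the scanner files within intensity bins its scale is log2 and its direction Low over High (correlation at least 0.896, slopes 0.998 to 1.00), its column medians are -0.032 to 0.032, and how it was normalized was not given in the sources used here. It served as an alternative.

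Signal means were corrected with normexp (offset 50) and normalized with 1 loess curve per array in limma 3.58.1, R 4.3.3. Blank and empty control spots had no weight, and the 26 to 67 spots per array marked manual or poor were left out. The 2 spots of a probe and then the 2 arrays of a pair were averaged. Genotype, goat and pair were taken from the labels, since both goats of an array are named there. In the test the spread pooled over probes weighs 7.47 degrees of freedom and a probe's own spread 2. Having 3 pairs limits the precision. Levels of different pairs were compared across arrays, but the goats of a pair within shared arrays. A wider range between pairs is therefore not a measure of the goats alone.

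Of 8379 probes, 6840 have 1 symbol, 93 several and 1446 none in the platform annotation, and only the first were used. Named genes are the 12 members of smallest unadjusted p, the 3 highest and lowest ratios, all elongation, ETF1 and PABPC genes, the extremes of each initiation subgroup, the 3 brightest and dimmest members, members whose probes differ in sign, and up to 3 genes of smallest p per pathway list; other members named were added after their values were seen. The members, roles and lists were chosen with earlier results of these data known. Alternatives covered normalization, background, filters, flags, dye orientation, pairing and leaving out each pair or array.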

Additional observations from a re-analysis of the deposited data

Results flagged for a closer look

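EEF1B2, an exchange factor subunit of elongation, had 1 array far from the other 5: its log2 ratio was -0.163 in pair C with the Low goat in Cy3, and the next lowest was -0.02. The gap took up 0.759 of the whole range of the 6 arrays. The limit used for such gaps is passed by chance in about 1 of 20 sets of this size, and 24 sets were examined.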

How the results depend on the processing

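With 0 members called in either direction, most alternatives gave 0 as well. Without pair C, however, 1 of the 31 was lower (PABPC1), beside 41 of 6744 tested probes called in either direction. On the arrays with Low in Cy5 alone 5 of 31 were higher, beside 1153 of 6746 probes called in either direction. On those with Low in Cy3 alone 4 were lower and 4 higher, beside 2460 of 6749 probes. Fits of a single orientation keep the dye effect in the ratio. EIF4E2 changed direction between them, from 0.29 to -0.26. Of all tested probes 30 passed; with an offset of 10 it was 19, with the authors' log2 ratios 18, with signal medians 19, with Low in Cy5 alone 1153, with Low in Cy3 alone 2460, and leaving out 1 pair or array 3 to 66. With the goats unpaired, 0 passed in limma and 11 had an unadjusted p under 0.05.

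The members' median of -0.0013 was -0.0098 in the authors' ratios, -0.011 when 12 of 12 readings were required, -0.0090 with empty-marked spots left out, 0.0093 with Low in Cy5 alone, -0.015 with Low in Cy3 alone, and -0.0154 to 0.0091 leaving out 1 pair or array. Initiation minus elongation, 0.02, was 0.00017 with median centring, 0.063 and -0.067 in the single orientations, and -0.0386 to 0.0333 leaving out 1 pair or array. Of 523 values of 23 named genes over 23 alternatives, 49 changed sign and 9 passed the threshold. The causes were not tested. A median standard error of 0.039 and 3 pairs set the smallest difference that could be seen, and genes near background have ratios drawn towards 0 by the offset.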
